A study of Mus musculus with 14 samples.

Results

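Described here are 10 genes of the bone morphogenetic protein (BMP) pathway in sorted mouse forelimb bud cells. They were chosen by their function, with earlier results of these data known, and are 10 of the 24454 genes of the deposited count table. They comprise the type I receptors Bmpr1a, Bmpr1b and Acvr1, the type II receptors Bmpr2, Acvr2a and Acvr2b, the receptor-regulated Smads (R-Smads) Smad1 and Smad5, and the inhibitory Smads Smad6 and Smad7. All 10 passed the filter on low counts, which kept 15125 genes.

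BMP dimers bind a complex of type I and type II receptor serine/threonine kinases, in which the type II receptor phosphorylates the type I receptor. The type I receptor then phosphorylates R-Smads, which enter the nucleus with Smad4 and act on target genes, while Smad6 and Smad7 block this step and are themselves induced by the signal. In the limb bud BMP signals act on patterning, cell death and cartilage formation, and Bmpr1a and Bmpr1b share a role in early chondrogenesis.

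The study asked how early limb bud mesenchymal progenitors (LMPs) differ from osteo-chondrogenic progenitors (OCPs). RNA-seq was done on 14 libraries from 5 populations isolated by fluorescence-activated cell sorting, with 2 libraries of S9-SCA-1+ cells and 3 of each other population. All cells came from pooled forelimb buds of embryos that carried the Sox9 IRES-EGFP allele in a mixed Swiss Albino background. S9+ cells showed the EGFP that reports Sox9 and S9- cells did not, and cells positive for 7AAD or for blood, endothelial or epithelial surface markers had been gated out. At E10.5 of embryonic development, S9-JAG1+ LMPs were gated for the Notch ligand JAG1, S9-Pαhi LMPs for high surface PDGFRα without JAG1 or SCA-1, S9+Pαhi OCPs for Sox9-EGFP with high PDGFRα, and S9-SCA-1+ cells for SCA-1 without JAG1. S9+Pαhi Col2a1+ chondroblasts came from E11.5 and carry in their labels the same gate as the OCPs, so stage and population cannot be told apart in any comparison with them. EGFP here follows the Sox9 locus, so that a cell is called S9- by its fluorescence and not by its transcripts.

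Library totals lay between 20316583 and 29162751 counts, with a median of 25554497. Transcripts of 3 genes used for the sort followed the labels, with Sox9 at 437 CPM in OCPs and 536 CPM in chondroblasts against 11.0 to 62.3 CPM in the S9- populations, and Jag1 highest in S9-JAG1+ LMPs at 296 CPM, although chondroblasts also held 119 CPM. Ly6a, which encodes SCA-1, reached 3.23 CPM in S9-SCA-1+ cells but 0.248 CPM or less elsewhere. By the study's account the S9- cells were taken from PDGFRα-positive cells. Pdgfra was at 34.4 CPM in S9-SCA-1+ cells against 247 to 864 CPM in the other populations. That gate reads surface protein, which these transcript levels do not measure. The summed level of 7 myoblast markers was 1504 and 1501 CPM in the S9-SCA-1+ libraries but at most 11.4 CPM in every other library, and its part in the results on these cells was not tested. Replicate 3 of the S9-SCA-1+ cells stood apart in 12 blood markers, which summed to 2736 CPM against 93.7 CPM in replicate 2 and 3.25 to 73.8 CPM elsewhere, and counts of the 10 genes called in this population are also given without it.

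RefSeq windows of 250 bases before a transcript start, on GRCm38.p6, were at hand for 9 of the 10 genes. Those of Bmpr1b precede internal starts, 187321 to 238165 bases inside the outer 5′ end of the gene in RefSeq (position 142169585 of chromosome 3), and sequence before that end was not analysed here. The transcript starts of the other 8 genes lie within 790 bases of the outer end. At its internal starts Bmpr1b had fewer CpG pairs than these 8 genes. The lines below give, 5′ to 3′ on the gene's own strand and with every CpG pair in capitals, the 2 Bmpr1b windows without annotated exon bases (chr3:141931589-141931838 and chr3:141982265-141982514, minus strand) and, for contrast, those of Acvr2a (chr2:48813859-48814108, plus strand) and Smad6 (chr9:64022060-64022309, minus strand).

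Bmpr1b, internal start A: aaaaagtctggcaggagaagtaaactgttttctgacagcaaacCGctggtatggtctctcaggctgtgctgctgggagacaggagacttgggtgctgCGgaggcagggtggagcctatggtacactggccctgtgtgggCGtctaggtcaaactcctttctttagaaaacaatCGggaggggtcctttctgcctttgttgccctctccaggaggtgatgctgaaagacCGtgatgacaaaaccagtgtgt
Bmpr1b, internal start B: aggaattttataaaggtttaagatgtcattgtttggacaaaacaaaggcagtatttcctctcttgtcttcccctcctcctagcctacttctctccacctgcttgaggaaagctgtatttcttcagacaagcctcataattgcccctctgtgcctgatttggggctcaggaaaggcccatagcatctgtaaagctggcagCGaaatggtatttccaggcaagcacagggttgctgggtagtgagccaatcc
Acvr2a: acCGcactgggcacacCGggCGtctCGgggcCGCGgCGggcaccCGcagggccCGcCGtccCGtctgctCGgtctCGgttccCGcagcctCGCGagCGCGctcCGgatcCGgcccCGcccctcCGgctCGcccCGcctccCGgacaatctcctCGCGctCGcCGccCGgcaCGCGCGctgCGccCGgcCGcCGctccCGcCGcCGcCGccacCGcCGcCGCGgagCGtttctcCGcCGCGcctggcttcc
Smad6: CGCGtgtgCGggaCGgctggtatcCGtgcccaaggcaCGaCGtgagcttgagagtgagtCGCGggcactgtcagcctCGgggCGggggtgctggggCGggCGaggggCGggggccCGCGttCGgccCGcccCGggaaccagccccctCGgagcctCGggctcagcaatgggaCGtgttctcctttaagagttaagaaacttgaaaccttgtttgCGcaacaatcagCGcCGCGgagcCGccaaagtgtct

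The Bmpr1b windows held 5 and 1 CpG pairs, against 49 in Acvr2a and 27 in Smad6. A further Bmpr1b window that overlaps that of start A also held 5. The ratio of observed to chance CpG was 0.0732 to 0.299 over the 3 Bmpr1b windows, which lay between the 10.9th and the 42.6th percentile of 32851 mouse windows. The other 8 genes had ratios of 0.735 to 1.23, between the 75.9th and the 99.6th percentile. Searched on both strands, ACAAAG, a core sequence read by SOX and TCF/LEF proteins, was in all 3 Bmpr1b windows, in Acvr2b and in 1 of the 3 Smad5 windows. The match in start A lies in the stretch shared with the further Bmpr1b window, so both count the same site. Of all windows, 16.5% held this sequence. GGCGCC, a BMP-responsive Smad element, was in the windows of Bmpr1a and Bmpr2 and in 1 of Smad5, with 9.59% of all windows holding it. The counts do not show which start was in use, and a match of letters is not a bound site.

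Levels are given below as CPM, the counts of a gene set relative to its library's total after scaling by the trimmed mean of M values (TMM). Differences were tested in edgeR by a quasi-likelihood test, with p values adjusted by Benjamini-Hochberg over the 15125 genes, and a gene is said to have risen, fallen or changed at an adjusted p of at most 0.1. Taken over all 5 populations in a joint test, all 10 genes changed, beside 74.8% of all tested genes. A single one, Bmpr1b, also spanned at least 1.2 on the log2 scale between its highest and lowest population, the limit used in the study, beside 29.2% of all tested genes. The median span of the 10 genes was 0.61 against 0.75 over all tested genes. With the chondroblasts left out, Acvr1 (adjusted p = 0.432) and Smad5 (adjusted p = 0.591, edgeR's quasi-likelihood test) no longer passed, while all 10 still passed with the S9-SCA-1+ cells left out. When 1 library was left out, Acvr1 lost its joint call without chondroblast replicate 1, 2 or 3 or S9-JAG1+ replicate 2 or 3. Smad6 lost it without S9-Pαhi replicate 1 or S9-JAG1+ replicate 2 or 3, and Smad5 without chondroblast replicate 3. In bulk samples, fewer cells that express a gene and less RNA of it per cell cannot be told apart.

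**Figure D1:**
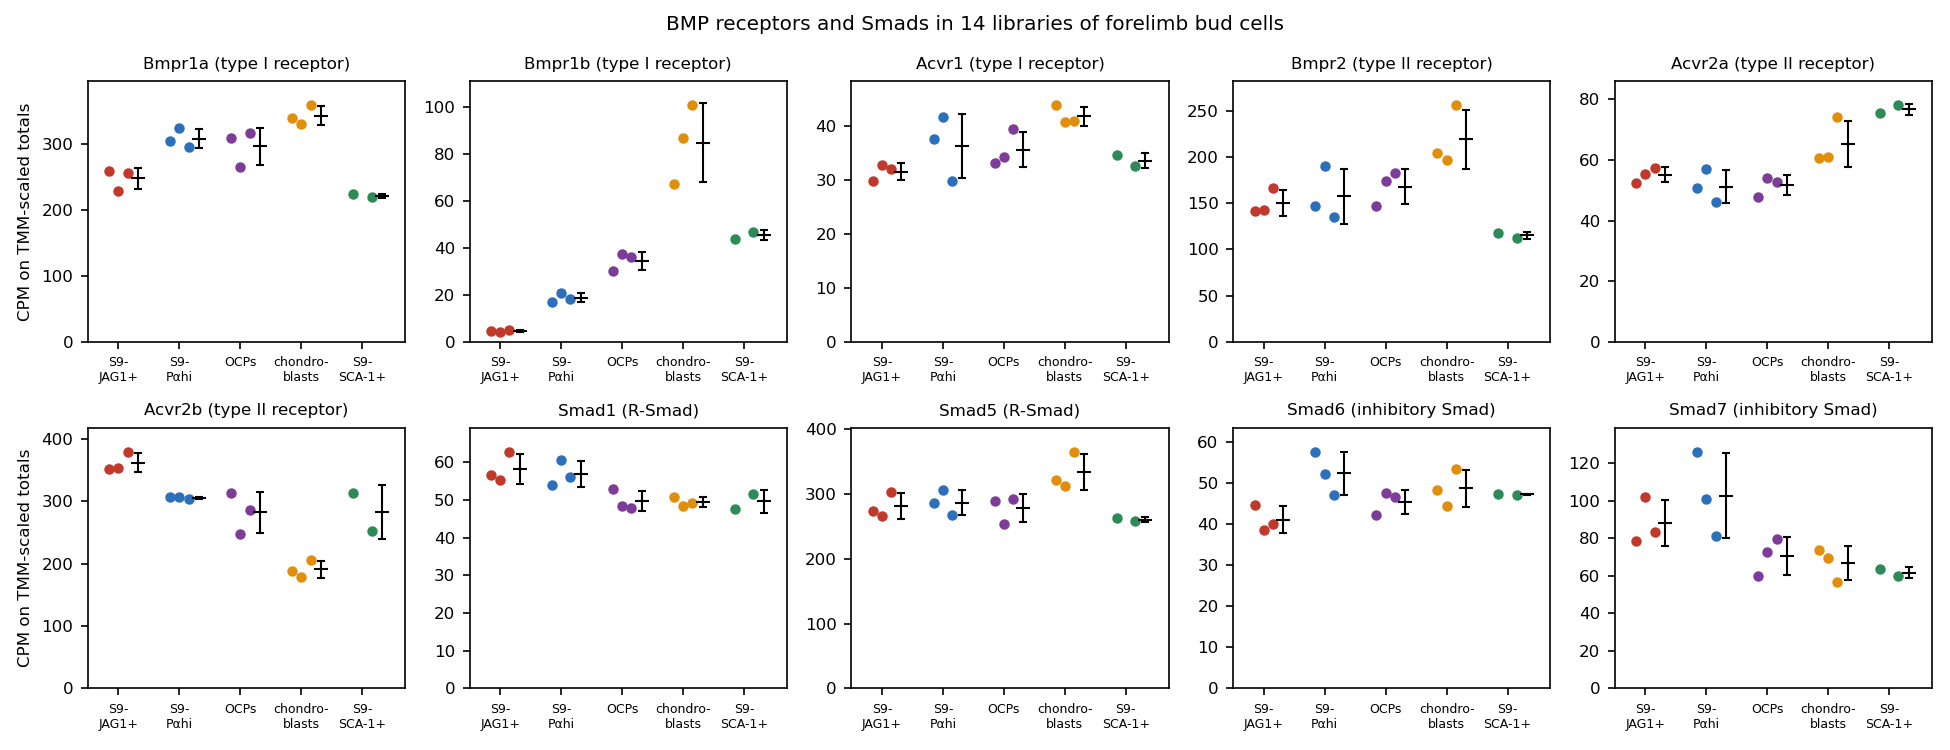
Levels of the 10 genes in each library, as CPM on TMM-scaled totals (vertical axes, from 0), by population (horizontal axes); coloured points are libraries, black marks the mean with its SD. Mean Bmpr1b rose from 4.60 CPM in S9-JAG1+ LMPs to 84.9 CPM in chondroblasts, whereas the fitted population means of each other gene stayed within a 1.9-fold span.

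Among the type I receptors, Bmpr1b (ALK6), known for its part in the growth of skeletal condensations, varied most. In S9-JAG1+ LMPs its level was 4.71, 3.98 and 5.11 CPM, from 110, 95 and 129 reads. Libraries of S9-Pαhi LMPs gave 17.2, 20.9 and 18.3 CPM and those of OCPs 30.2, 37.5 and 36.1 CPM. The S9-SCA-1+ cells held 43.9 and 46.9 CPM and the chondroblasts 67.1, 86.8 and 101 CPM. No library of any population overlapped with one of another, and the order of means was chondroblasts (84.9 ± 17.0 CPM, SD, n = 3), S9-SCA-1+ cells (45.4 ± 2.13, n = 2), OCPs (34.6 ± 3.85, n = 3), S9-Pαhi LMPs (18.8 ± 1.92, n = 3) and S9-JAG1+ LMPs (4.60 ± 0.574, n = 3). From the lowest to the highest population the fitted difference was 18.4-fold, or 4.20 ± 0.16 (SE) on the log2 scale, and 5.07% of tested genes had a larger span.

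Each step in that order passed edgeR's quasi-likelihood test. S9-Pαhi LMPs exceeded S9-JAG1+ LMPs 4.08-fold (adjusted p = 7.87e-07), and OCPs exceeded S9-Pαhi LMPs 1.84-fold (adjusted p = 0.00101). Chondroblasts exceeded OCPs 2.45-fold (adjusted p = 2.15e-05) and S9-SCA-1+ cells by 0.90 on the log2 scale (adjusted p = 0.000264). The smallest step, from OCPs to S9-SCA-1+ cells, was 0.39 ± 0.15 (SE) on the log2 scale with an adjusted p of 0.0592 by the same edgeR test, and it passed in 11 of the 14 fits that each left out 1 library. Every other comparison of Bmpr1b between populations passed in all 14 of these fits.

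Bmpr1b did not follow Sox9 in every population. S9-SCA-1+ cells had the least Sox9 of all, at 11.0 CPM, yet the second highest level of Bmpr1b. Over the 14 libraries, and among 11884 genes with a mean of at least 1 log2 CPM, the 3 genes whose log2 CPM went most closely with Bmpr1b were Plce1 (Pearson's r = 0.993), a phospholipase C, Pygl (0.989), the liver form of glycogen phosphorylase, and Ltbp4 (0.983), a latent TGFβ-binding protein. These correlations describe libraries that share their population and sort, and carry no test. Like Bmpr1b, all 3 were lowest in S9-JAG1+ LMPs and highest in chondroblasts, where Plce1 stood at 46.2 CPM, Pygl at 11.9 CPM and Ltbp4 at 71.9 CPM. Summed cartilage markers were 250 to 268 CPM in S9-JAG1+ LMPs and 284 to 341 CPM in S9-Pαhi LMPs. They were 1541 to 2156 CPM in OCPs and 2393 to 3539 CPM in chondroblasts, but 271 to 295 CPM in S9-SCA-1+ cells. Their part in the Bmpr1b result was not tested.

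**Figure D2:**
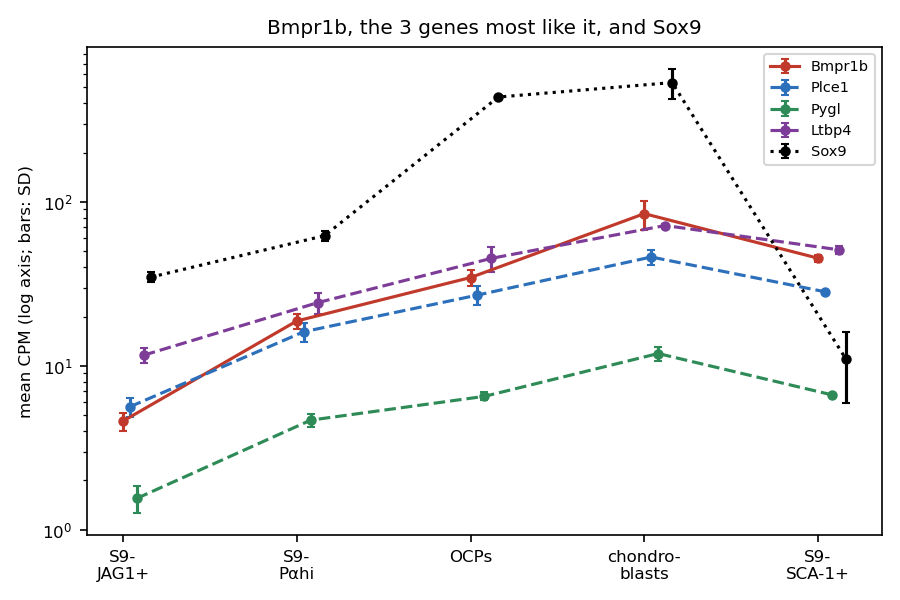
Mean CPM with SD (vertical log axis) of Bmpr1b, of the 3 genes most like it over the 14 libraries, and of Sox9, by population; lines join the means of one gene. Sox9 was at 11.0 CPM in S9-SCA-1+ cells while Bmpr1b was at 45.4 CPM there.

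Bmpr1a (ALK3), the broadly expressed type I receptor, changed far less. Its levels were 259, 229 and 256 CPM in S9-JAG1+ LMPs, 305, 324 and 296 CPM in S9-Pαhi LMPs, 310, 265 and 316 CPM in OCPs, 339, 331 and 359 CPM in chondroblasts and 224 and 220 CPM in S9-SCA-1+ cells. All chondroblast libraries lay above all others and both S9-SCA-1+ libraries below all others. Against the mean of the other 4 populations, Bmpr1a was 1.29-fold higher in chondroblasts (adjusted p = 0.000217), 1.34-fold lower in S9-SCA-1+ cells (adjusted p = 0.00073) and 1.16-fold lower in S9-JAG1+ LMPs (adjusted p = 0.015) by edgeR's quasi-likelihood test. The last call was lost without S9-JAG1+ replicate 2 (adjusted p = 0.175). Of neighbours in the order of levels, only OCPs and S9-JAG1+ LMPs differed (adjusted p = 0.0199, same test). Gm17110, an antisense gene, overlaps 4.57% of the exon bases of Bmpr1a, and whether the counting used strand is not given in the sources used here.

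Acvr1 (ALK2) is the third type I receptor of the group. It ranged from 29.7 CPM in S9-JAG1+ replicate 1 to 43.8 CPM in chondroblast replicate 1, and libraries of neighbouring populations overlapped throughout. In chondroblasts its mean was 41.8 ± 1.76 CPM (SD, n = 3), 1.22-fold above the mean of the other 4 populations (adjusted p = 0.0106), and in S9-JAG1+ LMPs it was 31.5 ± 1.57 CPM (n = 3), 1.17-fold below (adjusted p = 0.063, edgeR's quasi-likelihood test). The S9-JAG1+ call was lost in 6 of the 14 fits without 1 library.

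Compared per length, as CPM per kilobase of exon, Bmpr1a was the most abundant type I receptor in every population. It made up 81.4% ± 1.52 (SD, n = 3) of the summed type I receptor level in S9-JAG1+ LMPs and 69.7% ± 1.47 (n = 3) in chondroblasts. The share of Bmpr1b was 1.42% ± 0.114 in S9-JAG1+ LMPs, 4.57% ± 0.312 in S9-Pαhi LMPs, 8.42% ± 1.34 in OCPs and 16.1% ± 2.56 in chondroblasts (n = 3 each), and 13.3% ± 0.764 in S9-SCA-1+ cells (n = 2). Shares of Acvr1 stayed between 14.1% and 17.4%. In chondroblasts the level of Bmpr1b per length, 14.6 CPM per kb, was above that of Acvr1, 12.7 CPM per kb, on average but not in replicate 1, where Acvr1 was higher at 13.3 CPM per kb. In S9-JAG1+ LMPs it was 0.789 against 9.54 CPM per kb.

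**Figure D3:**
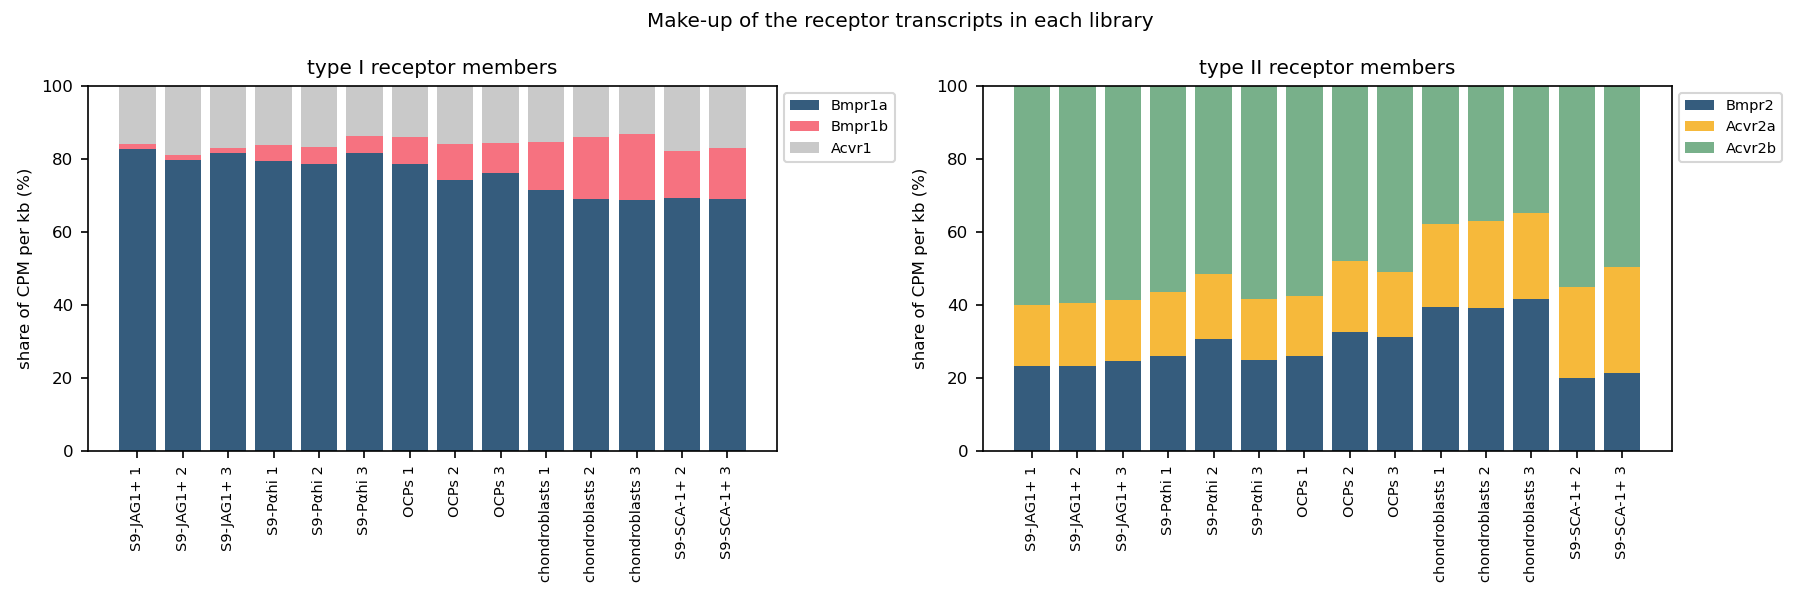
Share of each receptor in the summed CPM per kilobase of exon (vertical axes, 0 to 100%) of the type I members (left) and the type II members (right) in each of the 14 libraries. The Bmpr1b share is between 1.30% and 1.53% in S9-JAG1+ libraries and between 13.3% and 18.2% in chondroblast libraries, and the Acvr2b share is between 58.6% and 60.0% in the former and between 34.7% and 37.8% in the latter.

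Of the type II receptors, Acvr2b, which binds activins as well as BMPs, was highest where Bmpr1b was lowest and lowest where Bmpr1b was highest. Its levels were 352, 353 and 380 CPM in S9-JAG1+ LMPs and 189, 178 and 205 CPM in chondroblasts, with no overlap of either population with any other. S9-Pαhi LMPs (307, 307 and 304 CPM), OCPs (313, 247 and 286 CPM) and S9-SCA-1+ cells (314 and 252 CPM) lay between and overlapped. Acvr2b was 1.39-fold higher in S9-JAG1+ LMPs (adjusted p = 0.000206) and 1.61-fold lower in chondroblasts (adjusted p = 8.37e-06) than in the other 4 populations on average, by edgeR's quasi-likelihood test. The step down from OCPs to chondroblasts was 1.48-fold (adjusted p = 0.000964), and that from S9-JAG1+ to S9-Pαhi LMPs was 1.18-fold (adjusted p = 0.0967, same edgeR test), a call lost in 10 of the 14 fits without 1 library.

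Bmpr2, the type II receptor that binds BMPs in preference to activins, was highest in chondroblasts at 204, 197 and 256 CPM and lowest in S9-SCA-1+ cells at 118 and 112 CPM. Both groups lay clear of all other libraries, which held 135 to 191 CPM. Against the mean of the other 4 populations, chondroblasts were higher by 0.58 on the log2 scale (adjusted p = 0.000296) and S9-SCA-1+ cells 1.49-fold lower (adjusted p = 0.00345, edgeR's quasi-likelihood test). Levels in S9-JAG1+ LMPs, S9-Pαhi LMPs and OCPs overlapped, with adjusted p values of 0.788 and 0.674 for the neighbouring pairs by the same edgeR test.

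Acvr2a, the other activin and BMP type II receptor, was highest in S9-SCA-1+ cells at 75.5 and 78.1 CPM. Chondroblasts followed at 60.6, 61.1 and 74.2 CPM, and all other libraries held 46.0 to 57.5 CPM. The S9-SCA-1+ libraries exceeded every other library, and those of the chondroblasts every remaining one. Acvr2a was 1.38-fold higher in S9-SCA-1+ cells (adjusted p = 0.00089), 1.19-fold lower in OCPs (adjusted p = 0.0419) and lower by a log2 difference of -0.26 in S9-Pαhi LMPs (adjusted p = 0.0516, edgeR's quasi-likelihood test). A rise of 0.17 on the log2 scale in chondroblasts (adjusted p = 0.0702) shrank to 0.04 without chondroblast replicate 3 (adjusted p = 0.729, edgeR). Other fits that lost this call were those without chondroblast replicate 2, OCP replicate 2 or 3, or S9-JAG1+ replicate 2 or 3. The antisense gene Orc4 overlaps 7.84% of the exon bases of Acvr2a. Its own means lay between 50.2 and 64.7 CPM, with an adjusted p of 0.165 in the joint edgeR test. Between chondroblasts and S9-JAG1+ LMPs, Orc4 was lower in the former (log2 difference of -0.36, adjusted p = 0.0479, edgeR), where Acvr2a was higher. The part of Orc4 in the Acvr2a counts was not tested.

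Per length, Acvr2b was the most abundant type II receptor in S9-JAG1+ LMPs, at 59.3% ± 0.719 (SD, n = 3) of the summed level against 23.7% ± 0.915 for Bmpr2. In chondroblasts Bmpr2 held 40.1% ± 1.40, Acvr2b 36.5% ± 1.62 and Acvr2a 23.4% ± 0.527 (n = 3). In S9-SCA-1+ cells Acvr2a, at 26.9% ± 2.85 (n = 2), exceeded Bmpr2, at 20.7% ± 0.980. Summed type II receptor levels differed little between populations, with means of 49.1 to 57.2 CPM per kb, whereas summed type I receptor levels were 55.6 ± 2.75 CPM per kb in S9-JAG1+ LMPs and 89.9 ± 4.66 CPM per kb in chondroblasts (SD, n = 3).

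The R-Smads Smad1 and Smad5, kinase substrates of the type I receptors, varied little between populations. Smad9, a further R-Smad outside the group, is described below. Smad1 lay between 47.5 and 62.8 CPM in all 14 libraries, and 92.5% of tested genes had a larger span between populations. It was 1.13-fold higher in S9-JAG1+ LMPs than in the other 4 populations on average (56.6, 55.2 and 62.8 CPM there, adjusted p = 0.0339 in edgeR's quasi-likelihood test), a call lost without S9-JAG1+ replicate 3 (adjusted p = 0.207). Smad5 lay between 253 and 306 CPM outside the chondroblasts, which held 322, 313 and 366 CPM and did not overlap with them. The chondroblasts were 1.21-fold above the mean of the other 4 populations (adjusted p = 0.00361), and without their replicate 3 the call was lost (adjusted p = 0.108, edgeR). Per length Smad5 exceeded Smad1 in every population, with 36.3 to 46.5 CPM per kb against 16.2 to 19.1 CPM per kb.

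Of the inhibitory Smads, Smad6, which acts mainly on BMP signals, lay between 38.4 and 57.5 CPM. It was 1.18-fold lower in S9-JAG1+ LMPs than in the other 4 populations on average (adjusted p = 0.0281), and 1.27-fold higher in S9-Pαhi than in S9-JAG1+ LMPs (adjusted p = 0.0199, edgeR's quasi-likelihood test). Its libraries were 57.5, 52.2 and 47.1 CPM in the former and 44.6, 38.4 and 40.0 CPM in the latter, without overlap, but the difference missed the limit without S9-Pαhi replicate 1 (adjusted p = 0.102, edgeR). The call in S9-JAG1+ LMPs was lost without their replicate 2 (adjusted p = 0.177) or replicate 3 (adjusted p = 0.122, edgeR).

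Smad7 blocks both BMP and TGFβ signals. Its levels were 126, 101 and 81.1 CPM in S9-Pαhi LMPs, 78.6, 102 and 83.6 CPM in S9-JAG1+ LMPs, 59.8, 72.7 and 79.8 CPM in OCPs, 74.0, 69.3 and 56.6 CPM in chondroblasts and 63.8 and 59.7 CPM in S9-SCA-1+ cells. S9-Pαhi LMPs lay above all OCP, chondroblast and S9-SCA-1+ libraries and overlapped with S9-JAG1+ LMPs. Smad7 was 1.44-fold higher in S9-Pαhi LMPs (adjusted p = 0.0112) and 1.31-fold lower in S9-SCA-1+ cells (adjusted p = 0.0589, edgeR's quasi-likelihood test) than in the other 4 populations on average. The first call rested on S9-Pαhi replicate 1, the library with 126 CPM, without which the adjusted p was 0.137, and so did the 1.45-fold fall from S9-Pαhi LMPs to OCPs (adjusted p = 0.0399, and 0.174 without it, same edgeR test).

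Summed per length, Smad6 and Smad7 were highest in S9-Pαhi LMPs at 40.7 ± 6.86 CPM per kb (SD, n = 3) and between 29.8 and 33.6 CPM per kb elsewhere. The ratio of the inhibitory Smads to the R-Smads was 0.695 ± 0.117 in S9-Pαhi LMPs, 0.579 ± 0.0686 in S9-JAG1+ LMPs, 0.569 ± 0.0803 in OCPs and 0.502 ± 0.0395 in chondroblasts (n = 3 each), and 0.566 ± 0.0175 in S9-SCA-1+ cells (n = 2). Single libraries of S9-Pαhi LMPs, from 0.613 to 0.829, overlapped with those of S9-JAG1+ LMPs and OCPs, and lay above all of the chondroblasts.

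**Figure D4:**
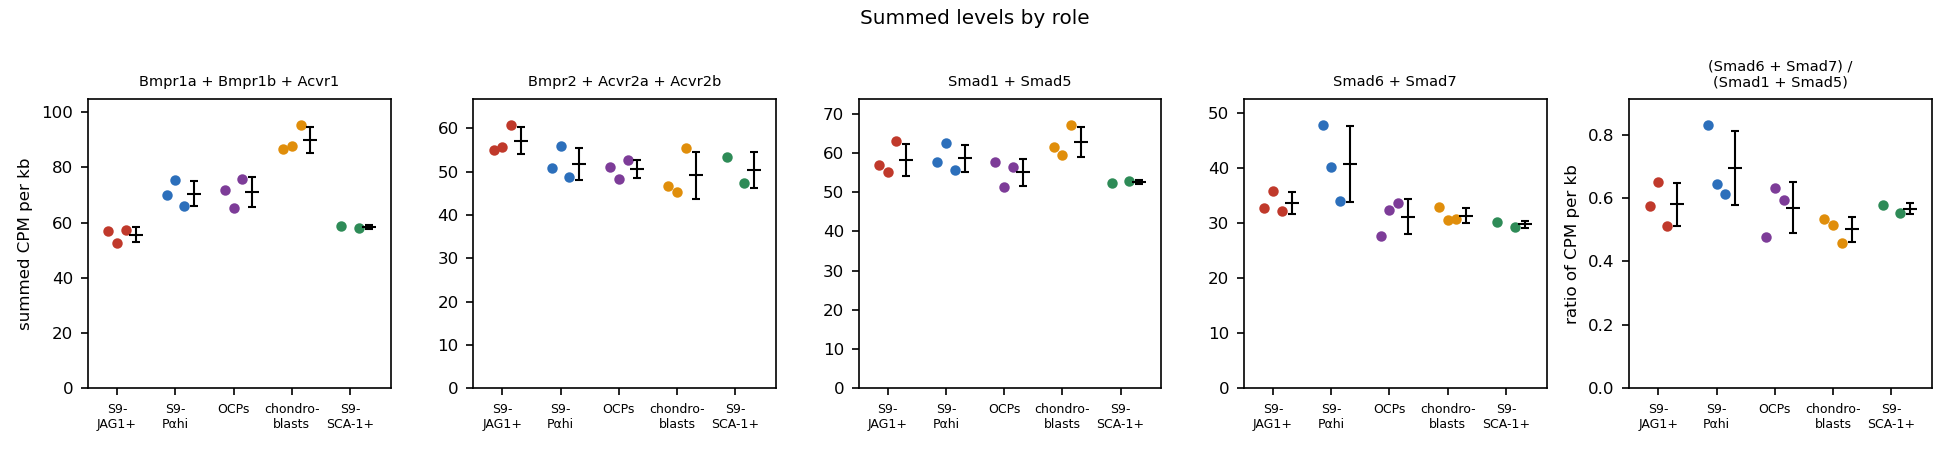
Summed CPM per kilobase of exon of the members of each role (vertical axes of the first 4 panels, from 0) and the ratio of inhibitory Smads to R-Smads (last panel) by population; points are libraries, black marks the mean with its SD. Type I receptor sums of the chondroblasts, 86.7 to 95.2 CPM per kb, lie above all others.

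By population, the chondroblasts had the most calls, both among the 10 genes and over all tested genes. The median size of the log2 change in chondroblasts was 0.28 for the 10 genes and 0.38 over all tested genes. Of the 10 genes, 6 were higher there than in the other 4 populations on average (Bmpr1a, Bmpr1b, Acvr1, Bmpr2, Acvr2a and Smad5) and Acvr2b was lower, beside 35.7% of all tested genes that rose and 29.4% that fell (65% together). Without chondroblast replicate 3 the calls of Acvr2a and Smad5 were lost, and that of Acvr2a was lost in other fits too. In S9-JAG1+ LMPs 2 rose (Acvr2b and Smad1) and 4 fell (Bmpr1a, Bmpr1b, Acvr1 and Smad6), beside 24.2% and 25.7% of all genes (49.9% together), and without S9-JAG1+ replicate 2, or without replicate 3, 3 of these 6 calls were left. In S9-SCA-1+ cells Bmpr1b and Acvr2a rose and Bmpr1a, Bmpr2 and Smad7 fell, beside 23.5% and 22.8% of all genes (46.4% together). Without replicate 3 of these cells the log2 difference was 0.97 for Bmpr1b and 0.44 for Acvr2a, and all of these calls but that of Smad7 (adjusted p = 0.298, and 0.176 without replicate 2, edgeR) were kept.

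The S9-Pαhi LMPs and OCPs stood nearer to the mean of the others. In S9-Pαhi LMPs Smad7 rose and Bmpr1b and Acvr2a fell, beside 8.03% and 7.6% of all genes (15.6% together), and without S9-Pαhi replicate 1 Bmpr1b alone remained. In OCPs Bmpr1b rose 1.44-fold (adjusted p = 0.0036, edgeR's quasi-likelihood test) and Acvr2a fell, beside 16.6% and 11.9% of all genes (28.5% together), the latter lost without OCP replicate 1 (adjusted p = 0.117, edgeR). Of all calls in these 5 comparisons, those of Bmpr1b in S9-JAG1+ LMPs and in chondroblasts exceeded 1.2 on the log2 scale, a size that 10.6% and 12.7% of all tested genes reached.

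**Figure D5:**
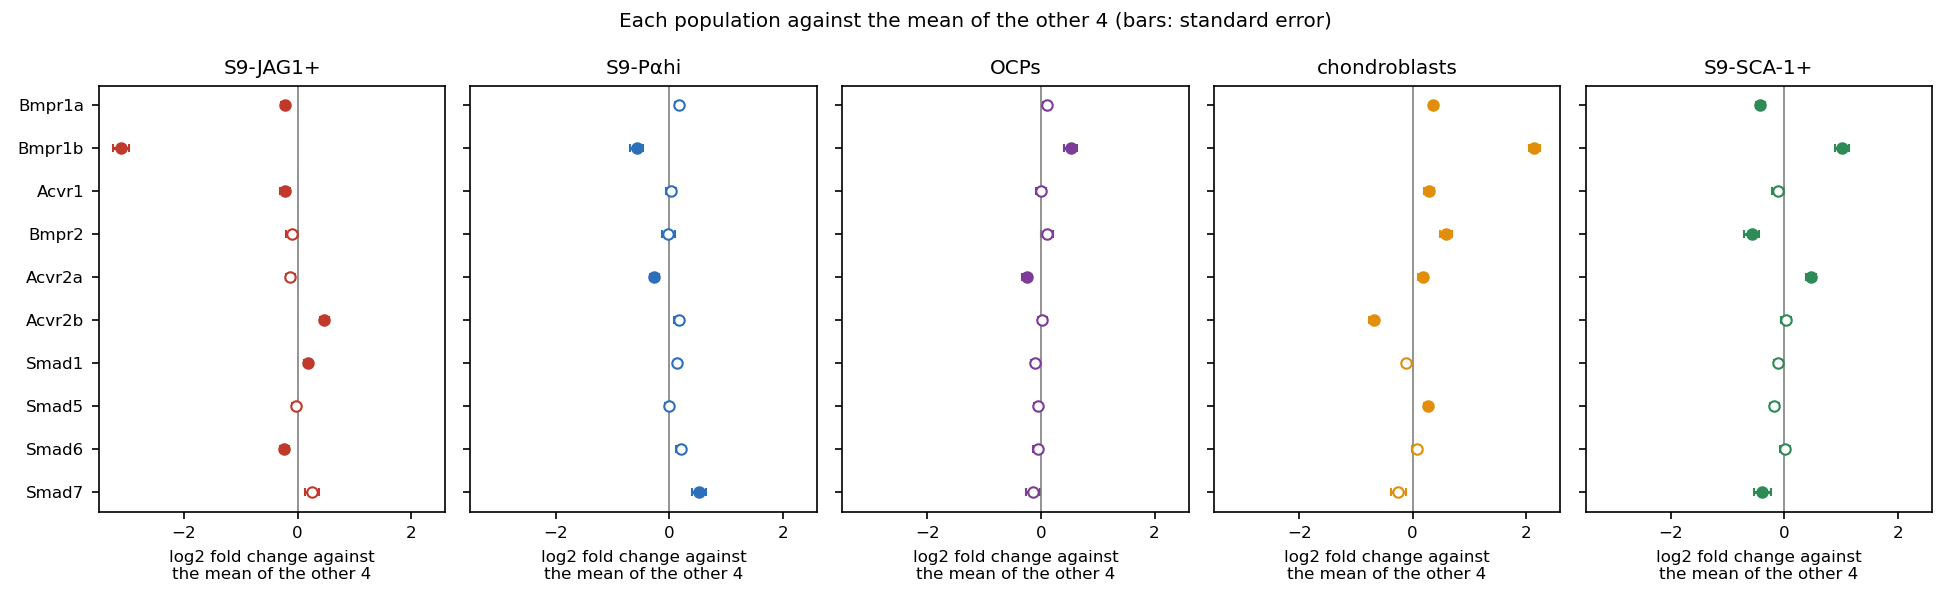
Log2 fold change of each gene in a population against the mean of the other 4 (horizontal axes), 1 panel for each population; bars are standard errors, and filled points passed an adjusted p of 0.1 in edgeR's quasi-likelihood test. Bmpr1b stands out at -3.11 in S9-JAG1+ LMPs and at 2.14 in chondroblasts.

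Populations were also compared in pairs. From S9-JAG1+ to S9-Pαhi LMPs Bmpr1a, Bmpr1b and Smad6 rose and Acvr2b fell (4 of 10, beside 15.2% of all genes that rose and 12.8% that fell, 28.1% together), and without S9-Pαhi replicate 1 the calls of Bmpr1a and Bmpr1b were left. From S9-Pαhi LMPs to OCPs Bmpr1b rose and Smad7 fell (2 of 10, beside 11.8% and 8.35%, 20.1% together). From OCPs to chondroblasts Bmpr1a, Bmpr1b, Bmpr2, Acvr2a and Smad5 rose and Acvr2b fell (6 of 10, beside 18.3% and 16.5%, 34.8% together), but without chondroblast replicate 3 Bmpr1b and Acvr2b were the 2 calls left. Between chondroblasts and S9-JAG1+ LMPs all 10 differed, beside 30.5% of all genes lower and 35.4% higher in chondroblasts (65.9% together), with Acvr2b, Smad1 and Smad7 lower in chondroblasts and the other 7 higher. Without chondroblast replicate 3, or without S9-JAG1+ replicate 2, 6 of these 10 calls remained.

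Summed endothelial markers moved with the same contrast, at 30.5 to 55.8 CPM in chondroblasts against a mean of 10.1 CPM in S9-JAG1+ LMPs. Most of this sum was Erg, at 42.0 CPM in chondroblasts against 4.48 CPM in S9-JAG1+ LMPs. The defining endothelial genes Pecam1 and Cdh5 were at most at 0.719 CPM in any chondroblast library. Besides Erg, the means of Pecam1, Kdr, Esam, Cldn5 and Flt1 were higher in chondroblasts. Those of Tek (1.24 against 2.94 CPM), Tie1 (0.143 against 0.316 CPM), Emcn, Cdh5 and Sox17 were lower there. The sums of other marker lists moved the same way, although not every gene in them did. Summed means in chondroblasts and S9-JAG1+ LMPs were 25.6 and 5.25 CPM for 7 neural crest markers, 61.7 and 21.1 CPM for 12 blood markers and 21.4 and 10.3 CPM for 10 limb ectoderm markers, and 9.22 to 11.4 CPM against 1.93 to 3.81 CPM per library for 7 myoblast markers. Of the neural crest sum, Erbb3 held 13.7 CPM in chondroblasts against 0.140 CPM in S9-JAG1+ LMPs, and Sox10 2.78 against 0.0412 CPM, while Ednrb was lower (0.781 against 0.896 CPM). The ectoderm sum rose largely through Krt18 (10.1 against 2.20 CPM) and Epcam (5.84 against 2.10 CPM). Its members Krt8 (1.52 against 3.21 CPM) and Sp8 (0.0598 against 2.16 CPM) went the other way. The part of these markers in the results was not tested.

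Lists of other genes of the pathway had larger median spans between populations than the 0.61 of the 10 genes, at 3.63 for response genes, 3.16 for ligands, 2.59 for antagonists and 0.93 for accessory genes, all as log2 differences over the genes that passed the filter. Of 13 genes that commonly respond to BMP signals, all 13 changed in the joint test and 11 also spanned at least 1.2 on the log2 scale, beside 74.8% and 29.2% of all tested genes. Tbx2 and Tbx3, T-box factors of the limb and interdigital mesenchyme, were highest in S9-Pαhi LMPs, at 254 ± 60.3 and 253 ± 37.0 CPM (SD, n = 3), against 49.7 and 47.1 CPM in S9-JAG1+ LMPs. Id4 was highest in chondroblasts, at 20.4 CPM, and lowest in S9-SCA-1+ cells, at 0.957 CPM, and Dlx5 differed 22.5-fold between the same populations. In S9-SCA-1+ cells 9 of the 13 fell and 2 rose against the mean of the others, beside 22.8% and 23.5% of all genes, and the counts were also 9 and 2 without replicate 3 of these cells. Levels there were 0.560 and 1.35 CPM for Id4 and 1.05 and 0.356 CPM for Dlx5 in replicates 2 and 3, and Dlx5 overlapped with the OCPs.

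Among the ligands, 9 of 13 listed passed the filter on low counts, and all 9 changed in the joint test by at least 1.2 on the log2 scale, beside 29.2% of all tested genes. Bmp4, the main mesenchymal and ectodermal BMP of the limb bud, was at 117 ± 6.5 CPM in S9-Pαhi and 99.2 ± 4.2 CPM in S9-JAG1+ LMPs against 35.0 ± 3.2 CPM in OCPs (n = 3 each), so that the populations with the least Bmpr1b held the most Bmp4. Gdf5, a joint and cartilage ligand with affinity for BMPR1B, had a mean of 34.6 CPM in chondroblasts and means of at most 3.92 CPM elsewhere. Bmp2 was also highest in chondroblasts (34.8 CPM) and lowest in S9-SCA-1+ cells (1.15 and 1.14 CPM), and Gdf6 was highest in S9-Pαhi LMPs (13.8 CPM).

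Of 17 tested antagonists among 18 listed, 16 changed in the joint test and 15 by at least 1.2 on the log2 scale, beside 74.8% and 29.2% of all tested genes. Grem1, the limb bud BMP antagonist, had a mean of 88.6 ± 5.8 CPM in S9-JAG1+ LMPs. Its means in the other populations were at most 24.5 CPM, with the lowest in chondroblasts (8.95 CPM). Chrdl1, a chordin-like antagonist, ran the other way, from 9.27 CPM in S9-JAG1+ LMPs to 121 CPM in chondroblasts, and Nog, which encodes noggin, from 1.43 to 9.03 CPM. Sostdc1 was highest in chondroblasts at 9.50 CPM. In chondroblasts 13 of the 17 rose and 1 fell against the mean of the others, beside 35.7% and 29.4% of all genes.

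Of 27 co-receptors, Smad partners and regulators, 23 changed in the joint test and 10 of them by at least 1.2 on the log2 scale, shares near the 74.8% and 29.2% of all tested genes. Smad9, the third BMP R-Smad, was at 0.779 ± 0.43 CPM in OCPs and at 6.21 ± 1.7 CPM in chondroblasts (SD, n = 3). Zeb2, a Smad-binding repressor, had means in the order of those of Bmpr1b, from 3.71 CPM in S9-JAG1+ LMPs through 6.96 CPM in S9-Pαhi LMPs, 13.2 CPM in OCPs and 21.3 CPM in S9-SCA-1+ cells to 26.4 CPM in chondroblasts. Unlike for Bmpr1b, the S9-SCA-1+ libraries (20.4 and 22.3 CPM) overlapped with the chondroblasts (21.2 CPM in replicate 1). Eng, a co-receptor, was highest in S9-SCA-1+ cells at 19.6 and 19.3 CPM, and Acvrl1 (ALK1), the type I receptor known from endothelium, in chondroblasts at 9.10 CPM.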

How the data were processed

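RNA-seq counts of 14 libraries from 5 sorted populations of mouse forelimb bud cells were analysed. The authors deposited whole-number counts per gene, without normalization, in 1 table with Entrez identifiers and exon lengths. Per the labels and the study's methods, poly(A)+ RNA was read from 1 end, aligned to mm10 with STAR and counted over RefSeq exons with QuasR. Whether strand was used is not given in the sources used here.

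Identifiers were matched to symbols through RefSeq for GRCm38.p6 (24374 of 24454, and the other 80 held 0.358% of the counts). In R 4.3.3, edgeR 4.0.16 was used with TMM scaling (factors of 0.957 to 1.06), filterByExpr by population and 1 quasi-likelihood model with a mean for each population. Contrasts set each population against the mean of the other 4, all pairs were compared, and a joint test covered all 5. Adjusted p values are over 15125 genes, and the standard error is the log2 fold change divided by the square root of F. The limit for a call was an adjusted p of 0.1, and calls were also counted with a log2 fold change of 1.2 or more in size. A total of 3 counts, 0.101 to 0.149 CPM, was taken as the floor. Replicates differed by more than sampling noise (chi-square per degree of freedom of 7.57 to 75.0), and the biological coefficient of variation was 13.4%. Deviations from the population means were correlated between libraries of different populations. Over 26 same-numbered pairs the median correlation was -0.00476, and 4 were over 0.1. Over 52 pairs of unlike number the median was -0.00297 and 6 were over 0.1. The highest, 0.413, was between OCP replicate 1 and S9-Pαhi replicate 3. Whether libraries of different populations shared a pool of buds is not given in the sources used here. Each library is a pool of forelimb buds, and p values measure the spread between such pools, taken as independent.

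The 10 genes and the lists of other pathway genes and markers were chosen with earlier results of these data known. Named are all 10 members, in each pathway list up to 4 genes with the largest span between populations of at least 1.2 on the log2 scale, and for a member with such a span the 3 genes most like it. The fits were tested on simulated data. Alternatives were DESeq2 1.42.0 size factors and test, unscaled library totals, 2 other filters, replicate numbers in the model and each library left out. Python 3.11.15, pandas 2.3.3 and matplotlib 3.10.9 were used for annotation and drawing.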

Additional observations from a re-analysis of the deposited data

How the results depend on the processing

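Counts of the 10 genes past the test kept within 1.5 times of those reported under DESeq2 size factors, library totals, both other filters and the DESeq2 test, except that the DESeq2 test gave 5 in S9-Pαhi LMPs in place of 3. With the replicate number as a block, the joint test gave 10, S9-JAG1+ LMPs 6, S9-Pαhi LMPs 3, OCPs 2, chondroblasts 8 and S9-SCA-1+ cells 5. This block moved no count by over 1.5 times. It covers only sharing by replicate number, and 5 of 14 libraries correlated best with one of their own number. Pairs of unlike number reached a correlation of 0.413, and sharing across numbers was not tested. Requiring also 1.2 on the log2 scale left 1 gene, Bmpr1b, in the joint test, S9-JAG1+ LMPs, chondroblasts, S9-Pαhi against S9-JAG1+ LMPs and chondroblasts against OCPs, and 0 in S9-Pαhi LMPs, OCPs, S9-SCA-1+ cells and OCPs against S9-Pαhi LMPs. Leaving out 1 library gave 8 to 10 genes in the joint test, 3 to 7 in S9-JAG1+ LMPs, 1 to 5 in S9-Pαhi LMPs, 1 to 3 in OCPs, 5 to 8 in chondroblasts and 4 to 6 in S9-SCA-1+ cells. It gave 2 to 4 for S9-Pαhi against S9-JAG1+ LMPs, 1 to 3 for OCPs against S9-Pαhi LMPs and 2 to 7 for chondroblasts against OCPs. For 2 results whose alternatives were chosen after seeing the data, it gave 6 to 10 for chondroblasts against S9-JAG1+ LMPs and 7 to 13 of 40 neighbouring pairs in the order of levels, against 12 with all libraries. The counts of response genes without replicate 3 of the S9-SCA-1+ cells were also added after seeing the data. The causes were not tested, beyond the smaller number of samples. Without length, the mean share over all libraries was 80.4% for Bmpr1a, 10.1% for Acvr1, 32.7% for Bmpr2, 11.7% for Acvr2a and 55.6% for Acvr2b, in place of 75.7%, 15.8%, 28.9%, 20.1% and 51.1%.

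Among the values of single differences over all settings, taking the lowest and the highest when 1 library was left out, 640 kept their direction and call, 22 gained a call, 29 lost it and 29 changed sign. Of the differences, 19 changed sign under some setting, none with an adjusted p under 0.414 (edgeR or DESeq2) there. On the log2 scale, leaving out 1 library gave -0.130 to 0.0103 for Bmpr1a, -0.151 to 0.0789 for Acvr1, -0.00542 to 0.256 for Bmpr2, -0.0594 to 0.0945 for Acvr2a and -0.106 to 0.00981 for Smad5 in OCPs against S9-Pαhi LMPs. It gave -0.0702 to 0.160 for Acvr1, -0.176 to 0.0856 for Bmpr2 and -0.0537 to 0.0439 for Smad5 in S9-Pαhi LMPs. It gave -0.0917 to 0.0500 for Acvr1, -0.0599 to 0.113 for Acvr2b and -0.104 to 0.0116 for Smad5 in OCPs. It gave -0.0980 to 0.164 for Bmpr2, -0.0788 to 0.0399 for Smad1 and -0.0244 to 0.0954 for Smad5 in S9-Pαhi LMPs against S9-JAG1+ LMPs. It gave -0.142 to 0.174 for Acvr2b and -0.00152 to 0.0386 for Smad6 in S9-SCA-1+ cells. It gave -0.0592 to 0.0363 for Smad1 in chondroblasts against OCPs. It gave -0.0852 to 0.0203 for Smad5 in S9-JAG1+ LMPs. It gave -0.0329 to 0.107 for Smad6 in chondroblasts. DESeq2 size factors gave -0.00251 for Acvr1 in OCPs and 0.00360 for Smad5 in S9-Pαhi LMPs. No filter gave -0.00124 for Acvr1 in OCPs. The DESeq2 test gave -0.00244 for Acvr1 in OCPs and 0.00369 for Smad5 in S9-Pαhi LMPs. Library totals gave 0.00536 for Acvr1 in OCPs against S9-Pαhi LMPs, -0.00669 for Acvr2b in S9-SCA-1+ cells, 0.0635 for Smad1 in chondroblasts against OCPs and -0.0164 for Smad6 in S9-SCA-1+ cells. The replicate block gave 0.00194 for Bmpr2 in S9-Pαhi LMPs. At this depth the 10 genes lay well above the floor of 3 counts, and precision was set by the spread between 2 or 3 libraries.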
